A study of Mus musculus with 2 samples.

Results

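The miR-23/27/24 genes of the mouse form a pair of paralogous clusters, and their 6 hairpin genes are described here among the 2202 microRNA (miRNA) genes counted in the left cerebral cortex. The members were chosen by symbol in GENCODE M21: Mir23b, Mir27b and Mir24-1 of the Mir23b cluster, and Mir23a, Mir27a and Mir24-2 of the Mir23a cluster. This rule used no measured value, though earlier results of these data were known when the members were chosen. The tissue came from male B6CASTF1/J mice, hybrids of the B6 and CAST strains, on postnatal day 10. There was 1 group, of 2 biological replicates with 1 small-RNA library each, labelled as separate males, and no treatment, genotype, age or sex was compared. Whole cortex was sampled, so fewer cells of a type and less RNA per cell cannot be told apart.

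An animal miRNA is cut from a hairpin in a longer transcript, and one or both arms of the hairpin then guide Argonaute proteins to messenger RNAs that pair with its seed, bases 2 to 8. The hairpins of each of these clusters are known to be cut from 1 primary transcript, and the clusters are known from endothelial cells, where they act on vessel growth, and from muscle and immune cells. Of their products, miR-23 is known in oligodendrocytes as a repressor of lamin B1, miR-27 as a repressor of adipocyte genes such as Pparg, and miR-24 as a brake on cell cycle genes.

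The Mir23b cluster spans 792 bases of chromosome 13 (mm10, chr13:63300484-63301275, plus strand), inside the protein-coding gene 2010111I01Rik and opposite an intron of Fancc. Mir23b lies in an intron of 2010111I01Rik. Mir27b and Mir24-1 lie wholly within annotated exons of noncoding or nonsense-mediated-decay transcripts of the same gene. The Mir23a cluster spans 404 bases of chromosome 8 (chr8:84208518-84208921, plus strand), outside any protein-coding gene, 1756 bases from Zswim4. Its last hairpin, Mir24-2, overlaps the first 2 bases of the long noncoding RNA gene Gm26532. Gaps between neighbouring hairpins were 154 and 423 bases in the Mir23b cluster and 79 and 56 bases in the Mir23a cluster.

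The hairpins are shown to mark where the copies can and cannot be told apart by sequence. Capitals mark the longest run that a hairpin shares with its paralogue. All 6 were found in the RefSeq table of build GRCm38.p6, whose coordinates for them equal those of the M21 annotation.
Mir23b, chr13:63300484-63300557: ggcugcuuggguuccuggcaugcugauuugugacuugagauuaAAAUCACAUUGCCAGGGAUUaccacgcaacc
Mir23a, chr8:84208518-84208592: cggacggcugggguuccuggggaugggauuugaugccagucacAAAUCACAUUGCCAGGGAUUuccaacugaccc
Mir27b, chr13:63300712-63300784: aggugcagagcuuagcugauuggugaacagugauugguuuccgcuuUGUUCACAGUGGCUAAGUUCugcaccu
Mir27a, chr8:84208672-84208758: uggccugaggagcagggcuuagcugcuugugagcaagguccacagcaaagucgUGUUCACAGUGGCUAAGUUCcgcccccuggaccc
Mir24-1, chr13:63301208-63301275: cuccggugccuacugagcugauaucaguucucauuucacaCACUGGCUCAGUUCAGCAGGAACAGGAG
Mir24-2, chr8:84208815-84208921: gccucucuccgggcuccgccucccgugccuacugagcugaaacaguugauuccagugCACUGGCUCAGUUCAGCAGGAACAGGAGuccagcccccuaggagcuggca
The shared run was 20 bases between the miR-23 copies, 20 bases between the miR-27 copies and 28 bases between the miR-24 copies.

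The mature arms listed by RefSeq that the run touches are shown next, with the seed in capitals. The RefSeq table used lists no miR-23b-3p, so that arm is named only.
miR-23a-3p: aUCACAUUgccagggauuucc
miR-27b-3p: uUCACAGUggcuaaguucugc
miR-27a-3p: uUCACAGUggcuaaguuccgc
miR-24-3p, at both loci: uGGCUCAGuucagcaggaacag
The 3p arms of miR-27b and miR-27a share their seed and differ at 1 of 21 positions, U19C counted from the 5′ end of miR-27b-3p. Read from the 5′ end, miR-23a-3p, miR-27b-3p and miR-27a-3p each became unique among the hairpins of the table only at 19 bases. The 22 bases of miR-24-3p occur whole at both loci, so no length within that arm was unique. The 5p arms differ more: those of miR-27b and miR-27a differ at 8 of 22 positions, and those of the miR-24 copies became unique at 17 bases.
miR-24-1-5p: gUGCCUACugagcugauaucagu
miR-24-2-5p: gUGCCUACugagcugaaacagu

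**Figure D1:**
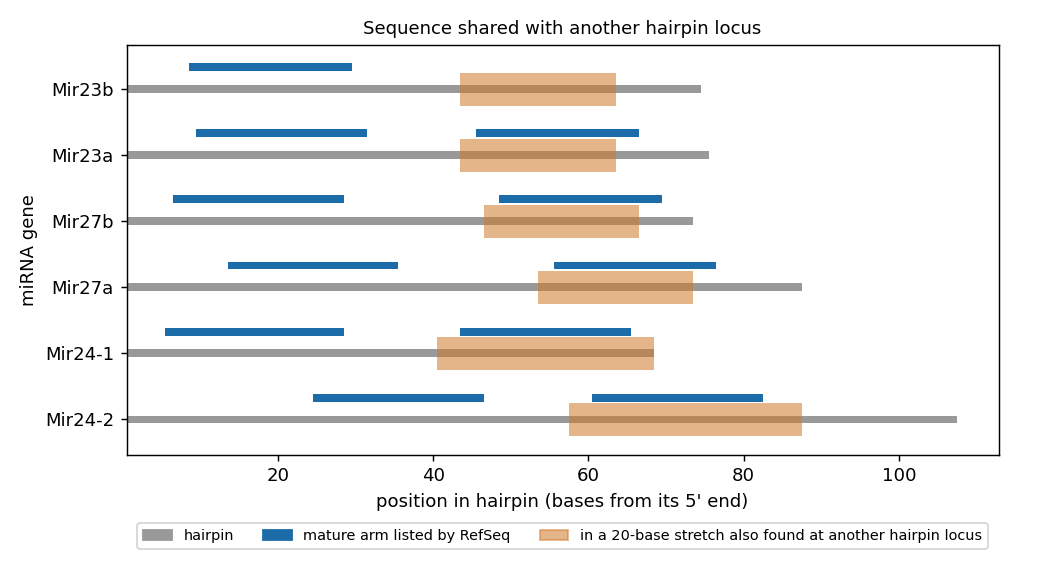
Position along each hairpin in bases from its 5′ end (x axis) for the 6 genes (y axis). Grey lines are hairpins and blue bars the mature arms that RefSeq lists, which leave out miR-23b-3p. Orange boxes are the bases inside any 20-base stretch that another hairpin locus also holds. Such stretches numbered 1 in each miR-23 and miR-27 hairpin, 9 of 49 in Mir24-1 and 11 of 88 in Mir24-2.

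The sense-strand reads given to miRNA genes numbered 2677910 in replicate 1 and 1750076 in replicate 2. Levels are given as CPM, the reads of a gene per 1000000 such reads. Reads mapped to more than 1 place belong to no gene in these counts. They numbered 1.29 times the assigned reads in replicate 1 and 1.20 times in replicate 2. Each value thus covers reads of either arm that could be placed at 1 hairpin, as a share of such reads. It is not the level of a mature arm. For the miR-24 genes, a read lying within miR-24-3p fits both loci and could not be placed at 1 of them. Detection was set at 2 CPM in each library, which 442 genes reached, all 6 members among them. Among markers of brain tissue, 7 of 11 genes were detected, led by Mir128-1 and Mir137. The other 4 were the 3 genes of miR-124 and Mir9-2, which had 0 to 10 reads. miR-124 and miR-9 each have several genes in that list, and these counts leave out reads mapped to more than 1 place. The part of such reads in the low counts was not tested.

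The miR-23 hairpins led both clusters. Mir23b had 33748 reads or 12602 CPM in replicate 1 and 13298 reads or 7599 CPM in replicate 2, a mean of 10100 ± 3538 CPM (SD, n = 2). Mir23a had 17835 reads or 6660 CPM in replicate 1 and 7027 reads or 4015 CPM in replicate 2. By mean CPM they ranked 23 and 39 among all 2202 genes. Both were higher in replicate 1, and the ranges of Mir23b and Mir23a over the 2 libraries did not overlap.

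The miR-27 hairpins came next and were far apart from each other. Mir27b had 1927 reads or 719.6 CPM in replicate 1 and 1695 reads or 968.5 CPM in replicate 2 (844 ± 176 CPM, SD, n = 2, rank 118). Mir27a had 205 reads or 76.6 CPM in replicate 1 and 148 reads or 84.6 CPM in replicate 2 (80.6 ± 5.67 CPM, rank 228). Mir27b was lower in replicate 1 than in replicate 2, the reverse of the miR-23 hairpins, while the exact binomial intervals of Mir27a in the 2 libraries overlapped (66.4 to 87.8 CPM in replicate 1 and 71.5 to 99.3 CPM in replicate 2).

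The miR-24 hairpins were the lowest of the 6. Mir24-1 had 68 reads (25.4 CPM, 95% exact binomial interval 19.7 to 32.2) in replicate 1 and 42 reads (23.999 CPM, 17.3 to 32.4) in replicate 2. Mir24-2 had 89 reads (33.2 CPM, 26.7 to 40.9) in replicate 1 and 46 reads (26.3 CPM, 19.2 to 35.1) in replicate 2. Although the highest Mir24-1 value lay below the lowest Mir24-2 value, the counting intervals of these genes overlapped in each library. The order of means was therefore Mir23b, Mir23a, Mir27b, Mir27a and then the miR-24 pair, whose own order was not resolved by these counts. Every other neighbouring pair in that order had ranges that did not overlap. The miR-24 hairpins are also those with the longest shared run, and the part of reads mapped to more than 1 place in their low counts was not tested. Intervals here and below cover counting error alone and leave out variation between animals and library preparations. PCR copies of 1 molecule are counted as separate reads, so the intervals may be too narrow even for counting error.

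**Figure D2:**
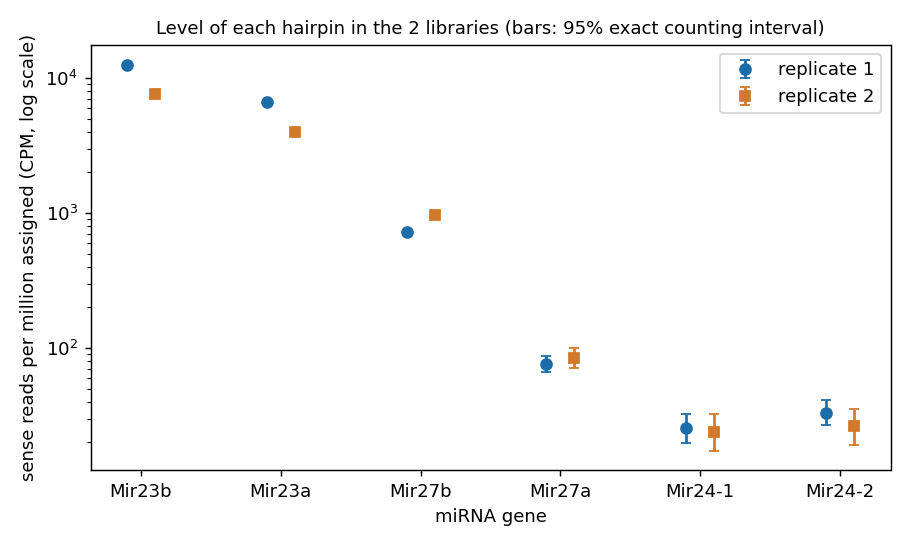
Level of each hairpin in CPM (y axis, log scale) for the 6 genes (x axis), in replicate 1 (circles) and replicate 2 (squares), with 95% exact binomial intervals. The miR-23 copies lie between 4015 and 12602 CPM, Mir27b between 719.6 and 968.5 CPM, and Mir27a and the miR-24 copies below 100 CPM.

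As clusters, the Mir23b hairpins took 1.33% of the assigned reads of replicate 1 (95% exact binomial limits 1.32 and 1.35) and 0.859% of those of replicate 2 (0.845 and 0.873), which averages 1.10% ± 0.336 (SD, n = 2). The Mir23a hairpins took 0.677% in replicate 1 (0.667 and 0.687) and 0.413% in replicate 2 (0.403 and 0.422), which averages 0.545% ± 0.187. The reads of the Mir23b cluster were 1.97 times those of the Mir23a cluster in replicate 1 and 2.08 times in replicate 2. Of the reads placed at 1 hairpin, most in both clusters were at miR-23. Reads mapped to more than 1 place are left out of these shares, and miR-24-3p occurs whole at both loci. Mir23b held 94.4% of its cluster's reads in replicate 1 and 88.4% in replicate 2, and Mir23a held 98.4% of its own in replicate 1 and 97.3% in replicate 2. Mir27b held 5.39% and 11.3% of the Mir23b cluster in replicates 1 and 2, while Mir27a held 1.13% and 2.05% of the Mir23a cluster.

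The ratio of the chromosome 13 copy to the chromosome 8 copy differed from family to family. It needs no scaling, since both counts come from 1 library. For every family it covers only reads placed at 1 hairpin. Read from the 5′ end, miR-23a-3p, miR-27b-3p and miR-27a-3p became unique only at 19 bases. Mir23b had 1.89 times the reads of Mir23a in replicate 1 (95% exact interval 1.86 to 1.93) and also 1.89 times in replicate 2 (1.84 to 1.95). Mir27b had 9.40 times the reads of Mir27a in replicate 1 (8.14 to 10.9) and 11.5 times in replicate 2 (9.68 to 13.6). Mir24-1 had 0.764 times the reads of Mir24-2 in replicate 1 (0.549 to 1.06) and 0.913 times in replicate 2 (0.586 to 1.42). The miR-24 copies were thus not distinguishable from equal counts, over reads that exclude those lying within miR-24-3p. In each library the intervals of the miR-23, miR-27 and miR-24 ratios did not overlap each other. Between the libraries, the ratio of Mir23b to Mir23a differed by a factor of 0.9999 (conditional exact interval 0.966 to 1.03), that of Mir27b to Mir27a by 0.821 (0.653 to 1.03) and that of Mir24-1 to Mir24-2 by 0.837 (0.479 to 1.46), replicate 1 over replicate 2. All 3 intervals include equality. Taken as counting error alone, the miR-23 interval limits any difference to a few percent, and the miR-24 interval leaves room for a 2-fold one.

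Ratios between neighbours on 1 transcript moved more. Mir23b had 17.5 times the reads of Mir27b in replicate 1 (16.7 to 18.3) and 7.85 times in replicate 2 (7.46 to 8.26), so that the ratio was 2.23 times as high in replicate 1 (conditional exact interval 2.08 to 2.39). Mir23a had 87.0 times the reads of Mir27a in replicate 1 (75.8 to 100.3) and 47.5 times in replicate 2 (40.3 to 56.3), a ratio 1.83 times as high in replicate 1 (1.47 to 2.28). In both clusters the miR-23 hairpin was thus higher against its miR-27 neighbour in replicate 1 than in replicate 2. The ratio of Mir27b to Mir24-1 was 28.3 and 40.4 in replicates 1 and 2, and that of Mir27a to Mir24-2 was 2.30 and 3.22, and for both the interval of the change included 1.

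**Figure D3:**
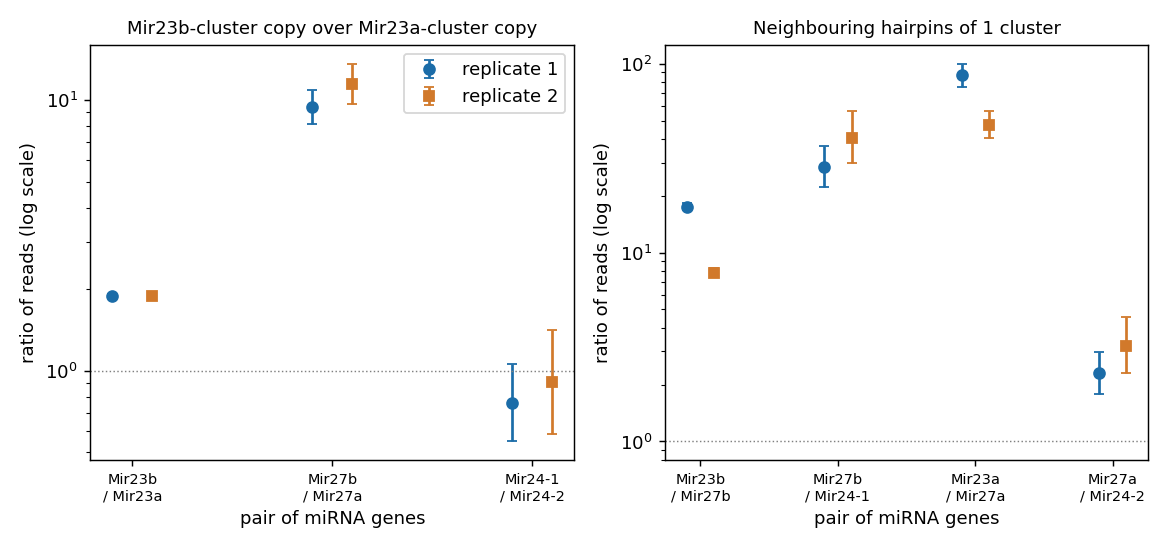
Ratio of reads within a library (y axes, log scale) in replicate 1 (circles) and replicate 2 (squares), with 95% exact intervals. On the left the Mir23b-cluster copy is set over its Mir23a-cluster paralogue, at 1.89 in both libraries for miR-23; on the right neighbouring hairpins of 1 cluster are compared, where the ratios of miR-23 to miR-27 are higher in replicate 1.

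The libraries were also compared gene by gene by setting the reads of each gene against all remaining assigned reads in a two-sided Fisher's exact test, with Benjamini-Hochberg adjustment over the 542 genes that reached 2 CPM in either library. This tests a pair of libraries, and no condition. A call needed an adjusted p below 0.05 together with a difference of 2-fold or more (log2 ratio 1 or beyond), which 12.0% of tested genes met. None of the 6 members did. At an adjusted p alone, which 42.3% of tested genes met, 3 of the 6 passed, as they did at an unadjusted p below 0.05. Of these 3, 2 were higher in replicate 1, as 24.9% of tested genes were, and 1 was lower, as 17.3% were. Mir23b had a log2 ratio, replicate 1 over replicate 2, of 0.73 (95% counting interval 0.70 to 0.76). Mir23a had a log2 ratio of 0.73 (0.69 to 0.77) with an adjusted p of 1.20e-301 by Fisher's exact test, and the p of Mir23b was smaller still. Mir27b went the other way with a log2 ratio of -0.43 (-0.52 to -0.33) and an adjusted p of 4.42e-18 by Fisher's exact test.

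Mir27a had a log2 ratio of -0.15 (adjusted p = 0.493, Fisher's exact test), Mir24-1 one of 0.07 (adjusted p = 0.909) and Mir24-2 one of 0.33 (adjusted p = 0.344). The median of the 6 log2 ratios was 0.20, beside 0.09 over all tested genes. A log2 ratio as large as that of Mir23b, in either direction, was found for 105 of 442 detected genes (23.8%) and for 18 of the 105 detected genes above 1000 CPM (17.1%), so a difference of this size between the libraries was not rare.

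**Figure D4:**
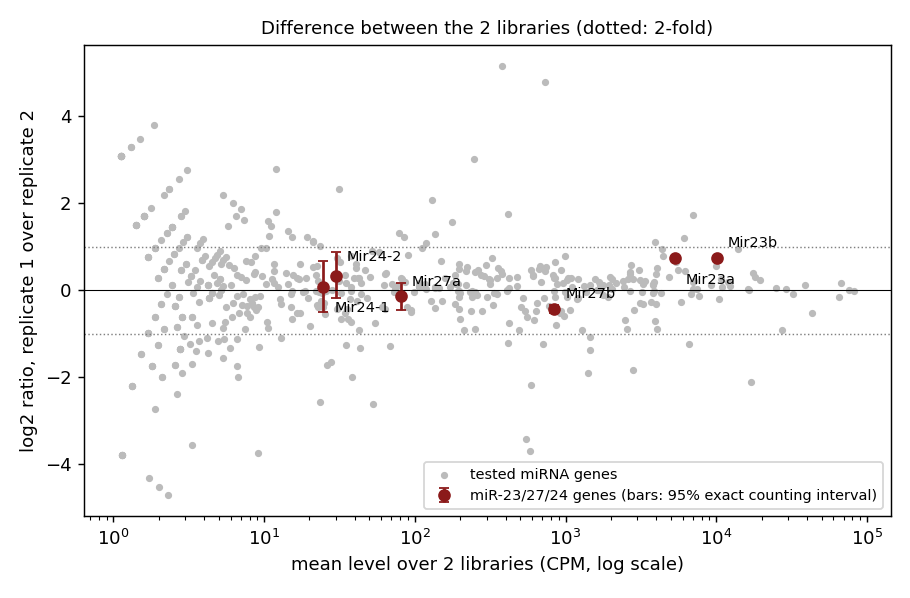
Log2 ratio of replicate 1 over replicate 2 (y axis) against mean level in CPM (x axis, log scale) for 542 tested miRNA genes (grey), with the 6 miR-23/27/24 genes in red and their 95% exact counting intervals. Mir23b and Mir23a sit together at 0.73, Mir27b at -0.43, and all 6 lie inside the dotted 2-fold lines.

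Marker genes of cell types that cortex holds are given by library, over reads placed at 1 hairpin. Their part in the values of the miR-23 and miR-27 genes was not tested. The brain tissue list summed to 4.07% of reads in replicate 1 and 2.56% in replicate 2, and the 3 erythroid genes to 0.0814% and 0.00566%. Of these, 1 of 11 brain genes and 2 of 3 erythroid genes were called, all higher in replicate 1, against 6.27% of all tested genes. No endothelial, mural, oligodendrocyte, microglia or leukocyte gene was called, beside 12.0% of all tested genes. By adjusted p alone, 5 brain and 2 erythroid genes were higher in replicate 1, against 24.9% of all tested genes. In turn, 2 oligodendrocyte genes and 1 endothelial or mural gene were lower, against 17.3%. The microglia and leukocyte list had 1 each way. The endothelial and mural list, led by the endothelial Mir126a, summed to 1.36% and 1.52% in replicates 1 and 2, with Mir126b at 0 reads in both. The 3 oligodendrocyte genes summed to 0.0834% and 0.142%, and all were detected. The 4 microglia and leukocyte genes, also all detected, summed to 0.163% and 0.160%.

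Among 19 miRNA genes known from endothelium and vessel growth, Mir126a and Mir132 being the highest, 16 were detected and 17 tested. Of these 1 was called higher in replicate 1, against 6.27% of all tested genes, and 2 lower, against 5.72%. Their median log2 ratio was 0.01. At an adjusted p alone, 5 of the 17 were higher in replicate 1, against 24.9% of all tested genes, and 6 were lower, against 17.3%.

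The genes nearest in level over the 2 libraries, by distance in log2(CPM + 1) among detected genes, were Mir137, Mir541 and Mir191 for Mir23b, at distances of 0.13, 0.39 and 0.45. For Mir23a they were Mir26b, Mir130a and Mir361, at 0.06, 0.23 and 0.34. With 2 libraries this likeness is no more than a similar level in each.

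Other miRNAs can pair with the same messenger RNA sites where their seeds match. The 7 seed bases of miR-27 start 1 base earlier in miR-128-3p, a neuronal miRNA made from Mir128-1 and Mir128-2. These genes had 18242 and 5629 CPM in replicate 1, and 9510 and 3293 CPM in replicate 2. Both had more CPM than Mir27b and Mir27a in each library, and both had more in replicate 1, where Mir27b had less. A read lying within miR-128-3p, which is listed for Mir128-1 and Mir128-2 alike, could not be placed at 1 of them. These CPM are therefore not the level of miR-128-3p. The seed of miR-24-3p was found in miR-6413, miR-6410, miR-6369 and miR-5124b, whose genes had 0 reads in both libraries. The seed of miR-24-1-5p and miR-24-2-5p starts 1 base later in miR-1271-3p, whose gene Gm24195 also had 0 reads in both libraries. With a floor of 3 reads, a count of 0 allows up to 1.12 CPM in replicate 1 and 1.71 CPM in replicate 2. No listed arm outside the clusters had the seed of miR-23a-3p at bases 2 to 8 or shifted by 1 base.

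Levels of copies with an identical arm in the families most like this one are given as a description, without a test. In the miR-181, miR-30 and miR-29 families, 13 of 16 genes matched the RefSeq table. Those without a match, Mir30d, Mir181c and Mir30b, had mean levels of 12391, 3852 and 136 CPM and were left out of the grouping below. The 8 whose mature arm occurs whole at another locus had mean levels of 17.3 to 6797 CPM with a median of 104 CPM, and the 5 without such an arm had 197 to 7045 CPM with a median of 2702 CPM. The highest of the 8 was Mir181b-2, at 6797 CPM. The miR-24 genes, at 24.7 ± 0.986 and 29.8 ± 4.91 CPM (SD, n = 2) for Mir24-1 and Mir24-2, lay between the lowest of these 8, Mir181a-2 at 17.3 CPM, and the next, Mir29b-1 at 36.3 CPM.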

How the data were processed

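Counts were used as the authors deposited them, 1 file per library with a row for each miRNA gene, raw and not normalized. Assembly mm10 and GENCODE annotation M21 are named in text deposited beside them, and the aligner, counter and trimming are not given there or in the labels. Judging by their values, the 3 columns count reads on either strand, on the gene's strand (sense) and on the other strand. Sense counts were divided by their sum over the 2202 rows that name a gene, all matched in M21. The remaining 4 rows hold reads that were unmapped (25.5% of the library in replicate 1, 42.4% in replicate 2), multimapped (38.2%, 28.3%), outside listed genes (6.93%, 5.74%) or ambiguous, and were not used in totals or tests. CAST alleles were not considered.

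The libraries differed beyond counting error over the 445 genes with at least 5 reads expected in replicate 2 (chi-square 124028 on 444 degrees of freedom). For log2 ratios 0.5 reads were added to each count. Fisher's exact test was used because a quasi-likelihood fit has no residual degrees of freedom with 1 library against 1. Scaling alternatives used edgeR 4.0.16 and DESeq2 1.42.0 in R 4.3.3; the rest used Python 3.11.15 with scipy 1.17.1 and pandas 2.3.3. RefSeq sequences were compared over 1005 hairpins, not the whole genome.

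The members, lists and tests were chosen with earlier results of these data known. Named were the members, genes opposite them, genes with a matching or shifted seed, the 3 genes nearest in level to Mir23b and Mir23a, and up to 2 of the highest genes of each list. The 4 undetected brain genes, Mir126b, Mir181a-2, Mir181b-2, Mir181c, Mir29b-1, Mir30b and Mir30d were named after their values were seen. The intervals for how far a ratio differed between the libraries, and the grouping of families by shared arm, were added after seeing the data.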

Additional observations from a re-analysis of the deposited data

Results flagged for a closer look

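The opposite-strand counts, which the levels of the 6 genes do not use, held reads at 1 of them, above the 3 reads that a count of 0 allows. Mir24-1 had 47 reads on the opposite strand in replicate 1 and 24 in replicate 2, and there were no control samples to set them against. Mir3074-1 is annotated there on the minus strand of chromosome 13, at 63301199 to 63301283, and its own sense counts were the same 47 and 24 reads, a level of 17.6 and 13.7 CPM (15.6 ± 2.71 CPM, SD, n = 2). Mir24-1 had 1.45 times the reads of Mir3074-1 in replicate 1 (95% exact interval 0.983 to 2.15) and 1.75 times in replicate 2 (1.04 to 3.02). Mir3074-2, annotated opposite Mir24-2 on chromosome 8, had 0 reads in both libraries, which with the same floor of 3 reads allows up to 1.12 CPM in replicate 1 and 1.71 CPM in replicate 2. Mir23b, Mir27b, Mir23a and Mir27a had no opposite-strand reads.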

How the results depend on the processing

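With the unstranded counts Mir24-1 and Mir24-2 had 0 CPM and 0% of their clusters, because an miRNA gene is annotated opposite each and reads over both are given to neither, so no miR-24 ratio could be formed. With reads mapped to more than 1 place added to the total, mean levels were 4471 CPM for Mir23b, 377 CPM for Mir27b, 10.98 CPM for Mir24-1, 2363 CPM for Mir23a, 35.9 CPM for Mir27a and 13.2 CPM for Mir24-2, and the Mir23b and Mir23a clusters held 0.486% and 0.241%. TMM and DESeq2 scaling moved no level or cluster share by more than 1 SD, nor did leaving out either replicate, which with n = 2 cannot move a mean by that much. Called genes numbered 53 to 65 of those tested under every alternative other than the adjusted p alone, which gave 229. Over these alternatives the log2 ratio of Mir23b ranged from 0.66 to 0.74, that of Mir23a from 0.66 to 0.74 and that of Mir27b from -0.50 to -0.42, and no member reached 2-fold. Leaving out a replicate leaves no difference between libraries to test. No paired analysis was possible because there is 1 group. The miR-24 genes had the fewest reads of the members, 42 to 89 each. Their 3p arm occurs whole at both loci, and its part in these low counts was not tested. Arms could not be told apart for any gene.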
